A study of Mus musculus with 7 samples.

Results

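Genes of fatty acid uptake, binding and lipoprotein handling were described across the only group of the series, the soleus muscle of 129/SV wild-type mice kept as cage controls. The members are Cd36, Lpl, Vldlr, Fabp3, Fabp4 and Dgat1, chosen by their symbols in the array's spot annotation. They make up 6 of the 203 named genes on the array, with 1 spot each. All 7 samples of the series were used, 1 array each, with RNA from cryosections of the muscle belly labelled with a radioactive nucleotide through gene-specific primers. The titles give replicate 5 another code, C16, than the C15 of the other 6 samples. The sources used here give neither the meaning of these codes nor the age and sex of the animals. Separate animals are not stated for the samples, so each p-value refers only to how values pair across these samples, whose differences may be technical.

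Muscle takes fatty acids from circulating lipoproteins and from albumin. Lipoprotein lipase (Lpl), made by muscle fibres and adipocytes, acts on the capillary wall and frees fatty acids from the triglycerides of chylomicrons and very low density lipoproteins (VLDL), and the VLDL receptor (Vldlr) binds such particles. Cd36 carries long-chain fatty acids across the membranes of endothelial cells and muscle fibres. Inside the cell small binding proteins hold them, Fabp3 in muscle fibres and Fabp4 in adipocytes and capillary endothelium, and Dgat1 catalyses the last step of triglyceride synthesis. Soleus, rich in slow oxidative fibres, burns much of its fuel as fatty acids.

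Signals are printed as percentages of the array total, which leaves out spot 1M, a spot with no gene name, and Rn28s1, a ribosomal RNA. The lowest spots of each array form a floor, taken as the array's 10th percentile, which ran from 0.02% to 0.13%. A gene was counted as above the floor if it exceeded 2 times that value on all 7 arrays, which held for all 6 members and for 44 of the 203 genes. The 6 members together took between 2.2% of the signal in replicate 3 and 3.77% in replicate 6. Signal also depends on each gene's primer and probe, so levels of different members were not ranked. In whole muscle, fewer cells of a type and less RNA per cell cannot be told apart.

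Markers of muscle fibres were high. All 9 of the 11 listed markers that are on the array lay above the floor, and together they took 29.5% to 43.4% of the signal. Of 9 listed adipocyte markers, 3 are on the array. Fabp4 was the only one above the floor, while the adipocyte regulator Pparg and the hormone-sensitive lipase Lipe exceeded 2 times that floor on 0 arrays. Of 9 listed endothelial markers, 6 are on the array and 1, the endothelial cadherin Cdh5, lay above the floor. Of 7 listed immune markers, 2 are on the array and 0 lay above the floor. The summed level of the adipocyte markers, Fabp4 included, ran from 0.48% to 0.78%, that of the endothelial markers from 0.5% to 1.19% and that of the immune markers from 0.05% to 0.43%.

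The genes that act on lipoproteins varied by less than 2 times between samples as deposited. Lpl was at 0.53%, 0.62%, 0.64%, 0.69%, 0.71%, 0.89% and 1.01% in replicates 1 to 7, a mean of 0.727% ± 0.166 (SD, n = 7). Replicates 6 and 7 were the high samples and replicate 1 the low one, and the highest value was 1.91 times the lowest. Lpl stood at least 4.08 times above the floor on every array. Vldlr was at 0.29%, 0.24%, 0.16%, 0.2%, 0.2%, 0.25% and 0.27% in the same order, a mean of 0.23% ± 0.0455. It was highest in replicate 1, the array with the highest floor, where it stood 2.23 times above that floor, and 10 times above it in replicate 5. After the quantile normalization described below, the order of samples changed for both genes. Lpl was then highest in replicate 3, at 0.37 log2 units from its mean, and at -0.11 in replicate 7. Vldlr was lowest in replicate 1, at -0.30.

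Cd36, the membrane carrier, varied the most among the uptake and binding genes as deposited. Its values were 0.82%, 1.08%, 0.46%, 0.76%, 0.88%, 1.35% and 0.88% in replicates 1 to 7, a mean of 0.89% ± 0.275 (SD, n = 7). Replicate 6 was the high sample and replicate 3 the low one, 2.93-fold apart. Cd36 stood between 6.31 and 44 times above the floor.

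Of the 6 members, 3 have an upstream sequence in the RefSeq promoter table of build GRCm38.p6: Cd36, Vldlr and Fabp3. The 250 bases before a RefSeq start of Cd36 and of Fabp3 are shown because these genes stand for the membrane step and the muscle binding step. The Cd36 window is chr5:17835897-17836146 on the minus strand and the Fabp3 window chr4:130308488-130308737 on the plus strand. Both are written 5′ to 3′ and end at the base before the start, with matches of the searched motifs in capitals.
Cd36: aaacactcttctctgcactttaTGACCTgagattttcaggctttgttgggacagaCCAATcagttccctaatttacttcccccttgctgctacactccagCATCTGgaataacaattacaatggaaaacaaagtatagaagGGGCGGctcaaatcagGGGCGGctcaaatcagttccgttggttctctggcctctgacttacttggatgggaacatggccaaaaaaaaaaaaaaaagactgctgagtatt
Fabp3: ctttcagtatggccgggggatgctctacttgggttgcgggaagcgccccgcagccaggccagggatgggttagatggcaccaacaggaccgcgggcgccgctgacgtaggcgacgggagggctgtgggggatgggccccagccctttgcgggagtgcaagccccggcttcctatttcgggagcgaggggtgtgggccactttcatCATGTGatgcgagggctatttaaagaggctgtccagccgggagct

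The motifs searched, on both strands, were the TATA box TATAAA, the CCAAT box CCAAT, the GC box GGGCGG, the nuclear receptor half-site AGGTCA, its direct repeat AGGTCANAGGTCA and the E box CANNTG. A match is a description of the letters and not a binding site. The Cd36 window held 2 GC boxes, beginning 109 and 93 bases before the start, and a GC box is in 32.7% of the 32851 RefSeq windows of this length. It also held 1 half-site on the opposite strand (in 14% of windows), 1 CCAAT box (in 33.8%) and 1 E box (in 66.2%). The Fabp3 window held 1 E box and none of the other letters. The GC content was 43.2% for Cd36 and 64.8% for Fabp3. The direct repeat is in 0.0335% of windows and in neither of these.

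As deposited, the binding proteins Fabp3 and Fabp4 had their highest and their lowest values in different samples. Fabp3 was at 0.61%, 0.41%, 0.46%, 0.47%, 0.38%, 0.53% and 0.28% in replicates 1 to 7, a mean of 0.449% ± 0.106 (SD, n = 7). Replicate 1 was the high sample and replicate 7 the low one, 2.18-fold apart. Fabp4 was at 0.47%, 0.54%, 0.37%, 0.42%, 0.42%, 0.62% and 0.42%, a mean of 0.466% ± 0.0864. It was high in replicates 6 and 2 and lowest in replicate 3, 1.68-fold apart. Fabp4 had the smallest coefficient of variation of the 6 members, 18.5%, against 23.7% for Fabp3.

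Dgat1, the storage enzyme, had the widest range. It was at 0.29%, 0.23%, 0.11%, 0.11%, 0.08%, 0.13% and 0.44% in replicates 1 to 7, a mean of 0.199% ± 0.130 (SD, n = 7). The highest value, in replicate 7, was 5.5 times the lowest, in replicate 5. Values were deposited to 4 decimals of the ratio, a step of 0.01%, which is 12.5% of the lowest Dgat1 value. Dgat1 stood only 2.17 to 4.89 times above the floor.

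**Figure D1:**
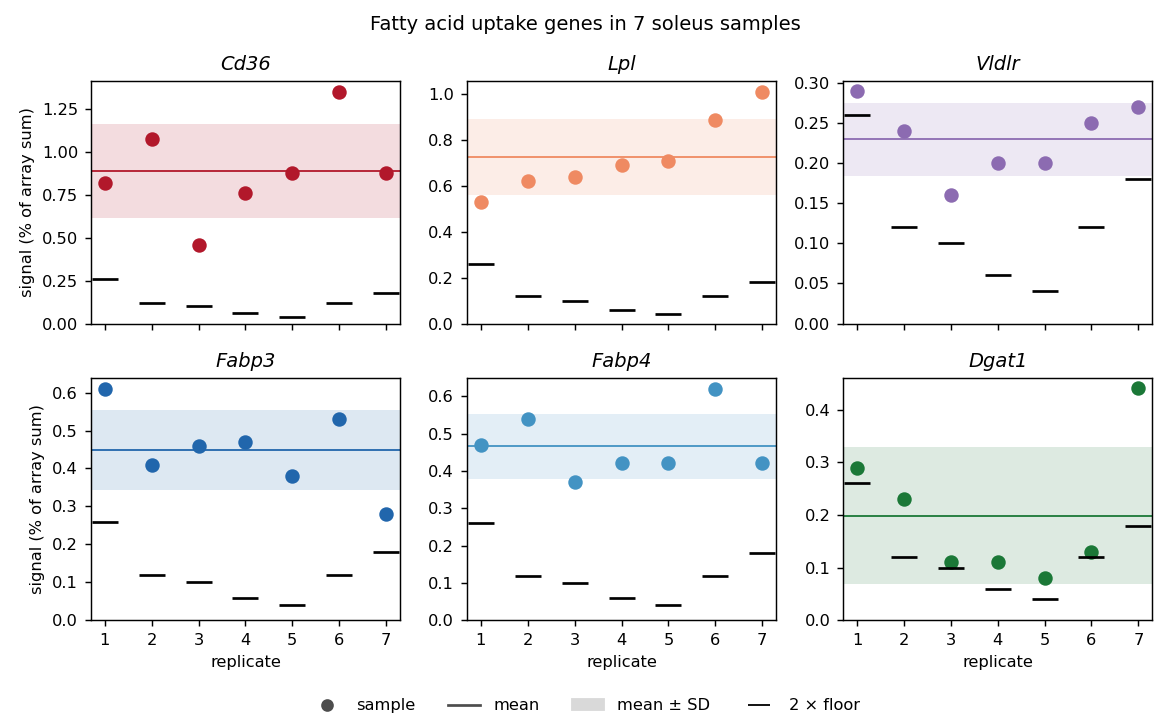
Signal of each member (y axis, percent of the summed array signal, from 0) in replicates 1 to 7 (x axis, 7 samples of 1 group), with 1 point per sample, the mean as a line, the mean ± SD as a band and 2 times the floor of each array as a black dash. Cd36 and Lpl sit at least 4.08 times above the floor, while Dgat1 runs from 0.08% to 0.44% and comes close to the dash in replicates 1, 3 and 6, as Vldlr does in replicate 1.

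By Pearson's r on all 7 arrays, Dgat1 was the only member whose level followed the floor past the threshold, and by rank Vldlr did so too. Over all 203 genes, log2 values as deposited were correlated with the log2 floor of the array, with a two-sided exact permutation p that enumerates all 5040 orders of the samples. At an exact permutation p under 0.05, 1 of the 6 members passed, beside 72.4% of all genes. At an adjusted p under 0.05 (Benjamini-Hochberg over the 203 genes) 70.0% of all genes and 9.09% of the 44 genes above the floor were past the threshold. Of the 6 members, 1 was. For Dgat1, r was 0.851 (exact permutation p = 0.0147, adjusted p = 0.0238; rho = 0.945, exact p = 0.00238, adjusted p = 0.00493), and 0.813 without replicates 1 and 5, the samples whose floors lie farthest from the median. With 1 sample left out, r for Dgat1 stayed between 0.792 and 0.890, while the number of members past the adjusted threshold was 0 without replicate 1, 2, 4 or 5 and 2 without replicate 3. For Vldlr, r was 0.698 (exact permutation p = 0.0841, adjusted p = 0.108) and rho 0.873 (exact p = 0.0139, adjusted p = 0.0210), with r at 0.621 without replicates 1 and 5. Cd36, Lpl, Fabp3 and Fabp4 gave r of 0.110, -0.0508, 0.180 and 0.271, with adjusted exact p from 0.603 to 0.917. Without replicates 1 and 5 these were 0.316, 0.614, -0.662 and 0.213. Their rho was 0.218, -0.180, 0.270 and 0.430, with exact p from 0.343 to 0.698. The median r was 0.225 over the members, 0.901 over all genes and 0.116 over the genes above the floor.

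For spread and correlation, values were also quantile-normalized over all 223 spots and put on the log2 scale. Quantile normalization fits all arrays to the same set of values, except that tied spots share the mean of theirs. The order of the members' spreads depended on this step. As deposited, the SD over samples was 0.89 log2 units for Dgat1, 0.48 for Cd36, 0.36 for Fabp3, 0.32 for Lpl, 0.30 for Vldlr and 0.26 for Fabp4. After quantile normalization it was 0.59 for Fabp3, 0.46 for Dgat1, 0.35 for Cd36, 0.32 for Fabp4, 0.21 for Lpl and 0.18 for Vldlr.

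The members' median SD, 0.34 as deposited and 0.33 after normalization, lay near the medians of the 44 genes above the floor, 0.34 and 0.26. Among these 44 genes, 2 had a larger deposited SD than Dgat1 and 36 a larger one than Fabp4. After normalization 3 of the 44 had a larger SD than Fabp3, and 40 a larger one than Vldlr. The large normalized SD of Fabp3 came with replicate 7, at -1.11 log2 units from the gene's mean on that scale and -0.64 as deposited.

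**Figure D2:**
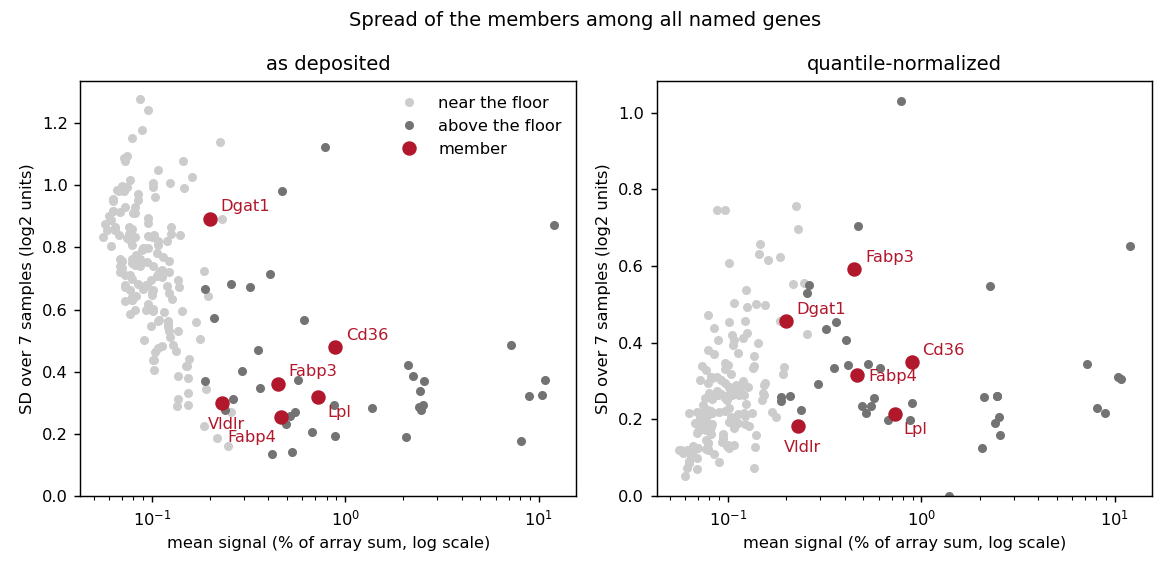
SD over the 7 samples (y axis, log2 units) against mean signal (x axis, percent of the summed array signal, log scale) for 203 genes, as deposited on the left and quantile-normalized on the right, with genes near the floor in light grey, genes above it in dark grey and the 6 members in red. Dgat1 is the widest member on the left (0.89) and Fabp3 on the right (0.59).

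Covariation of the uptake steps was examined pair by pair. The 15 pairs of members were tested on the quantile-normalized log2 scale with the exact permutation test of Pearson's r, two-sided, as part of all 20301 pairs of genes (1 gene with an SD of 0 left out). At an exact p under 0.05, 1 of the 15 member pairs was past the threshold, or 6.67%, against 11.6% of all gene pairs and 9.97% of pairs of genes above the floor. After Benjamini-Hochberg adjustment over all gene pairs, 0 of 15 were, and 0 of 20301. With 7 samples no pair of genes reached the adjusted threshold, so a pair that misses it is not shown to vary independently. The median r was 0.272 over the member pairs, 0.0161 over pairs of genes above the floor and -0.00352 over all pairs. The gap between members and background differed between scalings and was not tested. As shares of the signal of genes above the floor, the median r was 0.498 over the member pairs, beside 0.308 over pairs above the floor. As deposited these medians were 0.166 and 0.123, and with the floor subtracted 0.256 and 0.170. With equal array medians the members lay slightly lower, at 0.793 beside 0.801. After a quadratic trend in spot position was taken out, the medians were 0.181 and 0.0401. On the quantile-normalized scale, the count of member pairs past the unadjusted threshold was 0 without replicate 2 or 7 and 3 without replicate 1. The share of all gene pairs was not counted under these omissions, so these counts have no background.

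The pair past the unadjusted threshold was the carrier Cd36 with the binding protein Fabp4. As deposited, both were high in replicates 2 and 6 and lowest in replicate 3. On the quantile-normalized scale both were lowest in replicate 7, at -0.50 and -0.63 log2 units from their means. In replicate 3 Cd36 was then at -0.32 and Fabp4 at 0.05. After quantile normalization they gave r = 0.796 (exact permutation p = 0.0159, adjusted p = 0.357), with a 95% interval of 0.107 to 0.968. By ranks, rho was 0.773 (exact p = 0.05, adjusted p = 0.546). Leaving out replicates 2 and 7 gave r = 0.413. Replicate 7 lies farthest from the median of Cd36, and replicates 2 and 6 tie for the next place. Leaving out replicates 6 and 7 instead was not run. As deposited, r was 0.888 (exact permutation p = 0.00833, adjusted p = 0.0243 over 20503 pairs), on a scale where 46.2% of all gene pairs and 6.87% of pairs above the floor passed the adjusted threshold. It was the only one of the 15 pairs at an exact p under 0.05 under each of 6 scalings, with r from 0.796 to 0.919. The share of other gene pairs that pass under each scaling was not counted. The pair was singled out after its values were seen. On the quantile-normalized scale the exact p rose to 0.103 without replicate 2 and 0.183 without replicate 7. As deposited, the adjusted exact p was 0.0437 without replicate 5 and 0.0424 without replicate 7, and between 0.0554 and 0.133 without replicate 1, 2, 3, 4 or 6.

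The spots of Cd36 and Fabp4 touch on the array. Cd36 is at number 19, letter E, Fabp4 at 18 F, and Vldlr, at 19 D, lies beside Cd36. Among genes above the floor with 1 spot, the median r of 29 pairs of adjacent spots was 0.481 on the quantile-normalized scale, against -0.0477 for 737 pairs more than 3 steps apart. As deposited these medians were 0.358 (29 pairs) and 0.0440 (777 pairs). The adjacent pairs include Cd36 with Fabp4 and Cd36 with Vldlr. With a quadratic trend in spot position removed, r of Cd36 and Fabp4 was 0.802 (exact permutation p = 0.0218, adjusted p = 0.404). That step did not level the neighbours: adjacent pairs kept a median r of 0.232 (29 pairs), against 0.0134 (777 pairs) farther apart. The part of any finer effect of position in this pair was not tested.

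Most other pairs changed with the scaling. Of the 15 pairs, 6 had r above 0 under each of 6 scalings, 0 had r below 0 under each, and 9 changed sign. The 6 were the pairs among Cd36, Vldlr and Fabp4, and Lpl with Vldlr, Lpl with Fabp4 and Fabp3 with Fabp4. How many pairs of other genes kept 1 sign was not counted, so these counts have no background. With equal medians the median r of pairs above the floor was itself 0.801. For Cd36 and Lpl, the carrier and the lipase, r was -0.126 after quantile normalization (95% interval -0.803 to 0.693; exact permutation p = 0.799) and 0.368 as deposited. For Lpl and Fabp3, r was 0.272 (95% interval -0.605 to 0.851; exact permutation p = 0.546) and -0.632. Dgat1 had r below 0 with all 5 other members after quantile normalization, with r from -0.600 with Fabp3 to -0.278 with Cd36 and exact permutation p from 0.155 to 0.558, none past the threshold. Without the 2 samples farthest from the median of the other member, r was 0.0171 with Cd36, 0.475 with Vldlr, 0.0445 with Fabp3, 0.105 with Fabp4 and -0.476 with Lpl. For Cd36, replicates 2 and 6 tied, and replicate 2 was left out together with replicate 7. As deposited, Dgat1 had a positive r with 4 of them, up to 0.767 with Vldlr (exact permutation p = 0.0444, adjusted p = 0.0823), the other member that lay close to the floor. As deposited, 2 of the 15 pairs passed unadjusted, beside 55.3% of all gene pairs and 13.4% of pairs of genes above the floor. As shares of the signal of genes above the floor 4 did, beside 64.4% of all gene pairs and 21.9% of pairs of genes above the floor. With the floor subtracted 2 did, beside 8.09% and 11.0%. With the position trend removed 1 did, beside 10.8% of both. With equal array medians, 8 of the 15 pairs were past the unadjusted threshold, beside 16.9% of all gene pairs and 55.3% of pairs of genes above the floor.

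**Figure D3:**
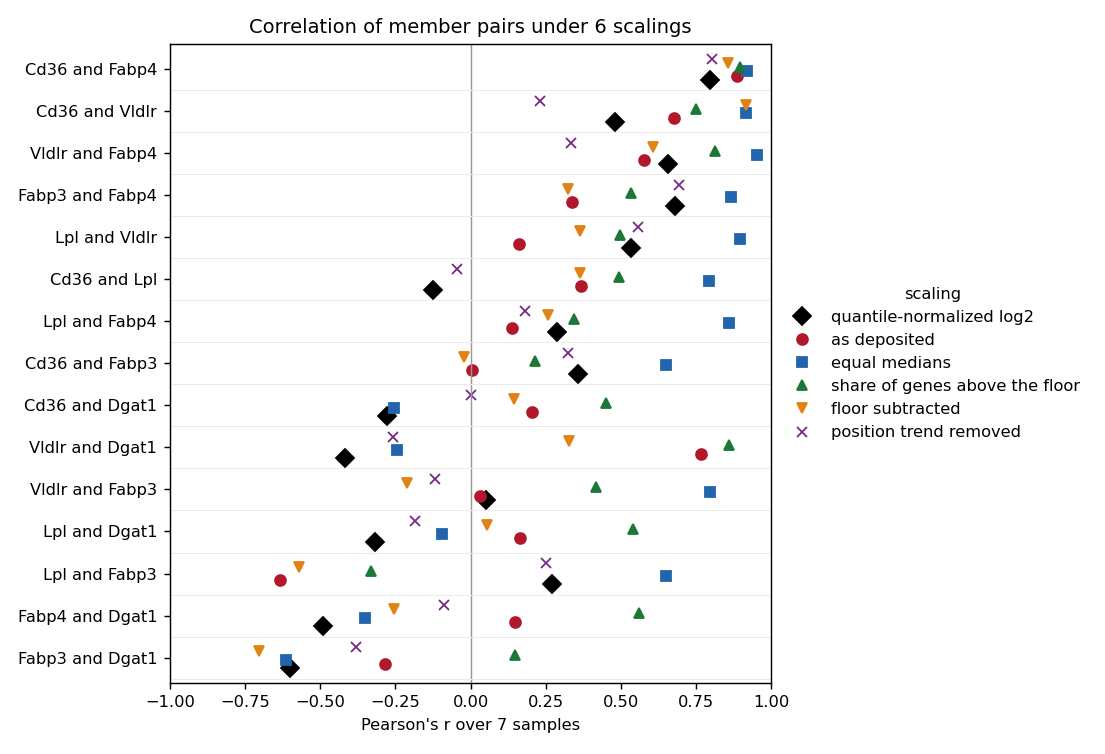
Pearson's r over 7 samples (x axis) for the 15 pairs of members (y axis, ordered by the median over scalings), with 1 symbol for each of 6 scalings. Cd36 and Fabp4 stay between 0.796 and 0.919 in all 6, while pairs such as Lpl and Fabp3 run from -0.632 to 0.651.

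Fabp3 of muscle fibres and Fabp4 of adipocytes and endothelium were compared directly. On the quantile-normalized scale they gave r = 0.681 (exact permutation p = 0.114, adjusted p = 0.526), with a 95% interval of -0.148 to 0.948, and rho was 0.306 (exact permutation p = 0.512, adjusted p = 0.908). The relation rested on replicate 7, the low sample of both genes on that scale: r was 0.0297 without replicates 1 and 7 and -0.149 without replicate 7 alone. As deposited they gave r = 0.338 (exact permutation p = 0.457), or 0.269 if replicate 7 is left out.

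The ratio of Fabp3 to Fabp4 within an array does not change with any factor applied to the whole array. Its log2 value, relative to the mean over samples, was 0.45 in replicate 1, 0.39 in replicate 3 and 0.23 in replicate 4. It was -0.07 in replicate 5, -0.15 in replicate 6, -0.33 in replicate 2 and -0.51 in replicate 7. The ratio thus differed 1.95-fold between the extreme samples, with an SD of 0.37 log2 units. The ratio of Cd36 to Fabp4 had an SD of 0.28 and that of Vldlr to Fabp4 one of 0.26. The ratio of Lpl to Fabp3 had an SD of 0.61, with 4.15-fold between replicates 1 and 7. The median over 946 pairs of genes above the floor was 0.52. A smaller SD was found in 6.98% of those pairs for Vldlr and Fabp4, in 23.6% for Fabp3 and Fabp4 and in 63.2% for Lpl and Fabp3.

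**Figure D4:**
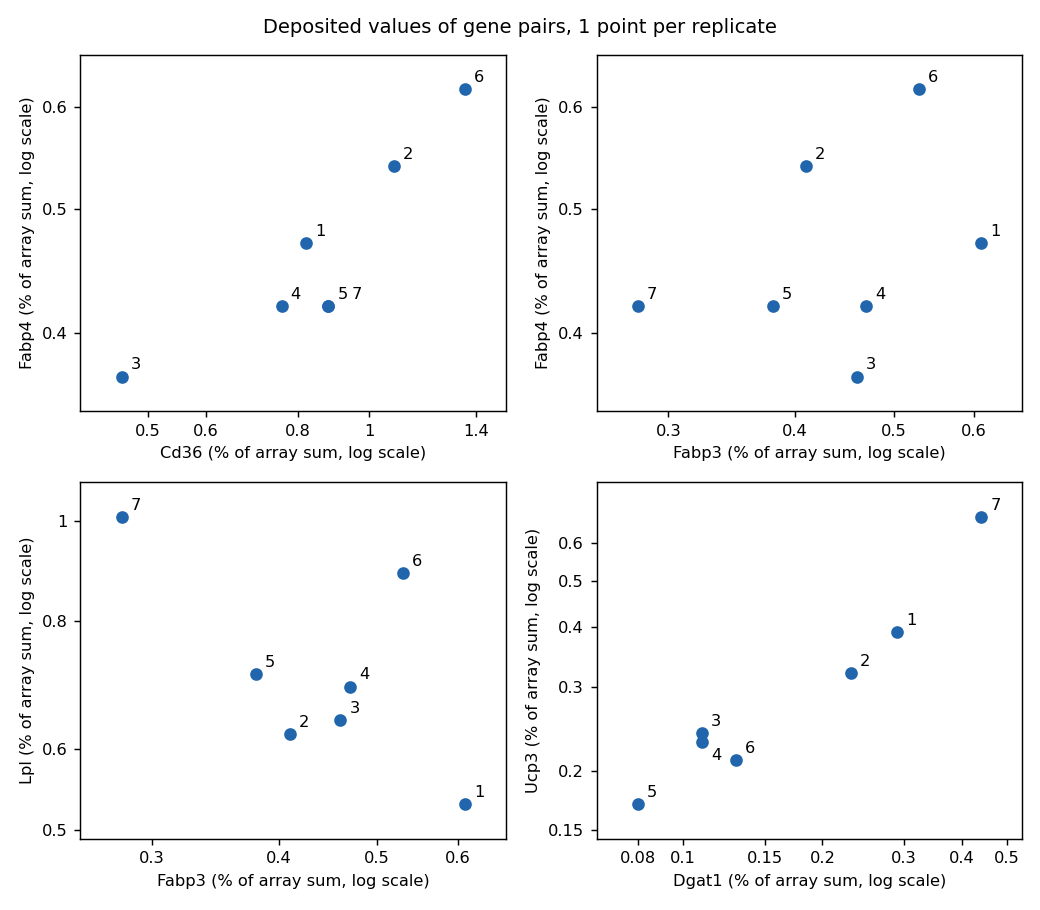
Deposited values of 4 gene pairs (both axes in percent of the summed array signal, log scale), with 1 point per sample and the replicate number beside it. Cd36 and Fabp4 are both lowest in replicate 3 and both highest in replicate 6, Fabp3 and Fabp4 scatter, Lpl is highest where Fabp3 is lowest (replicate 7), and Dgat1 and Ucp3 are both highest in replicate 7 and lowest in replicate 5.

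The binding proteins were also set against the fixed markers of each cell type, on the quantile-normalized scale. With the 8 muscle markers whose values varied, Fabp3 had r above 0 for 6, from -0.62 with titin (Ttn) to 0.876 with the fast myosin Myh4, and a median of 0.290. The values were 0.392 for myoglobin (Mb), 0.448 for the slow myosin Myh7, 0.508 for Cox6a2, 0.188 for Myh2, 0.0623 for desmin (Des) and -0.0924 for Myh1. Only Myh4 passed an exact permutation p under 0.05 (p = 0.00476, adjusted p = 0.289; rho = 0.927), with r = 0.898 without replicates 1 and 7 but -0.172 as deposited. Over all 6 members, 3 of 48 pairs with muscle markers passed, or 6.25%, beside 11.6% of all gene pairs.

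Fabp4 had r below 0 with all 6 endothelial markers after quantile normalization, from -0.795 with Nos3 to -0.0224 with Kdr, and with exact permutation p from 0.0881 to 0.967. As deposited, r was above 0 for 5 of the 6. With Cdh5, the endothelial marker above the floor, r was -0.0235 and, as deposited, 0.531. With the adipocyte markers Pparg and Lipe, both near the floor, Fabp4 gave r = 0.488 and 0.554 (exact permutation p = 0.284 and 0.188; rho = 0.432 and 0.378). Without replicates 2 and 7 these were 0.771 and -0.0294, and as deposited 0.346 and 0.411. Fabp3 passed the unadjusted threshold with Flt1 and Nos3, both near the floor, with r of -0.893 and -0.863 (exact permutation p = 0.00794 and 0.0208, adjusted p = 0.320 and 0.377; rho = -0.893 and -0.786). Without replicates 1 and 7 these r were -0.808 and -0.160, and as deposited -0.163 and -0.0823. They were the only calls among the 36 pairs of members with endothelial markers, 5.56%, beside 11.6% of all gene pairs. With the immune markers Il1b and Il6, both near the floor, 3 of 12 pairs passed unadjusted, or 25%, beside 11.6% of all gene pairs. These were Dgat1 with Il6 (r = 0.870, exact permutation p = 0.0216; rho = 0.393), Fabp3 with Il6 (-0.859, p = 0.0212; rho = -0.857) and Vldlr with Il1b (-0.746, p = 0.0333; rho = -0.393). Without the 2 farthest samples these r were -0.693, -0.279 and 0.843. As deposited they were 0.990, -0.274 and 0.764.

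Of 43 other genes listed for fatty acid transport, lipoprotein handling, triglyceride turnover, oxidation, synthesis and their regulators, 8 are on the array, and 4 of these lay above the floor. The 4 are enzymes and a carrier of the mitochondrion: Hadh, Acadm and Acadl of beta-oxidation, at 0.674% ± 0.0907, 0.256% ± 0.120 and 0.494% ± 0.0838 (SD, n = 7), and the uncoupling protein Ucp3, at 0.32% ± 0.175. Cpt1b, which controls the entry of fatty acids into mitochondria, exceeded 2 times the floor on 6 arrays. Near the floor were Lipe and both regulators, Ppara and Pparg. Of the 48 pairs of a member with 1 of these 8 genes, 9 were past an exact permutation p under 0.05, or 18.8%, beside 11.6% of all gene pairs. All 9 had r above 0, and 6.39% of all gene pairs were past that p with r above 0. After adjustment 0 passed. The median r over the 48 pairs was 0.264. Some of these spots lie close together: Lpl and Acadl are 2 letters apart at the same number, Cd36 and Acadm 3. Among genes above the floor with 1 spot, 31.0% of adjacent pairs were past that p. For pairs 2 to 3 steps apart it was 16.1%, and for those more than 3 steps apart 8.01%. Lpl and Hadh, on adjacent spots, gave r = 0.101. The part of spot position in these pairs was not tested.

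These 9 pairs split by member. Lpl passed with Acadl (r = 0.813, rho = 0.898), Cpt1b (0.817, 0.865) and Pparg (0.862, 0.829), with exact permutation p of 0.0214, 0.0298 and 0.00833 for r. Without replicates 1 and 3 these r were 0.749, 0.437 and 0.916, and as deposited they were 0.558, 0.626 and -0.0581. Vldlr passed with Acadl (r = 0.789, rho = 0.445) and Cpt1b (0.806, 0.607), with exact permutation p of 0.0405 and 0.0220, but r was -0.629 and 0.0200 without replicates 1 and 7. Cd36 passed with Acadm (r = 0.869, rho = 0.847) and Lipe (0.847, 0.847), with exact permutation p of 0.0163 and 0.0198, and with r of 0.765 and 0.770 without replicates 2 and 7. As deposited these r were 0.682 and 0.260, and for Lipe, which exceeded 2 times the floor on 0 arrays, r was -0.409 with equal medians. As deposited, r for Vldlr was 0.218 with Acadl and 0.542 with Cpt1b. Fabp4 passed with Hadh (r = 0.865, rho = 0.505; exact permutation p = 0.0286), and r was -0.419 without replicates 2 and 7 and 0.604 as deposited. Dgat1 passed with Ucp3, and Fabp3 with 0 of the 8. Adjusted exact p for the 9 pairs ran from 0.323 to 0.413.

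Dgat1 and Ucp3 were high in the same samples. Ucp3 was at 0.39%, 0.32%, 0.24%, 0.23%, 0.17%, 0.21% and 0.68% in replicates 1 to 7, so replicates 7, 1 and 2 were the high samples of both genes and replicate 5 the lowest. After quantile normalization r reached 0.871 (exact permutation p = 0.00913, adjusted p = 0.331) and rho 0.865 (exact p = 0.0159), with r at 0.805 without replicates 2 and 7. As deposited it was 0.965 (exact permutation p = 0.00119, adjusted p = 0.00863). The 2 spots are adjacent, at 4 N and 3 O. With the position trend removed, r was 0.274. As deposited, Dgat1 gave similar r with genes near the floor, 0.990 with Il6, 0.961 with Nos3 and 0.954 with Kdr. The floor was also high in replicates 1 and 7, and its part in this pair was not tested.

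By pattern over the 7 samples, each member was set against the 37 other genes above the floor whose normalized values varied, as a description with no test. Closest to Cd36 were Acadm (r = 0.869), the citrate cycle enzyme Mdh2 (0.855) and the glycolytic enzyme Aldoc (0.714), with 0.682, 0.918 and 0.692 as deposited. Closest to Fabp4 were the glucose transporter Slc2a2 (0.933), Mdh2 (0.870) and Hadh (0.865), with 0.515, 0.958 and 0.604 as deposited. Mdh2 stayed with both under all 6 scalings, with r from 0.815 to 0.953 for Cd36 and from 0.870 to 0.996 for Fabp4. Its spot, 20 F, touches that of Cd36 and lies 2 steps from that of Fabp4. Closest to Lpl were Acadl (0.813), desmin (Des, 0.759) and the cytochrome oxidase subunit Cox6a2 (0.758), with 0.558, 0.271 and -0.154 as deposited. Closest to Vldlr were Acadl (0.789), the lactate dehydrogenase Ldhb (0.778) and the pyruvate dehydrogenase subunit Pdha1 (0.707). As deposited these were 0.218, -0.553 and 0.264. Closest to Fabp3 were Slc2a2 (0.893), Myh4 (0.876) and the cytochrome oxidase subunit Cox5b (0.845), with 0.350, -0.172 and 0.471 as deposited. Closest to Dgat1 were Ucp3 (0.871), the DNA polymerase subunit Pole2 (0.791) and the enolase Eno2 (0.707), with 0.965, 0.864 and 0.914 as deposited and 0.274, 0.204 and 0.102 with the position trend removed.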

How the data were processed

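The values deposited are a linear ratio for each of 223 spots in 7 samples. Without spot 1M and Rn28s1 each column sums to about 1 (99.9% to 100.0%), so the deposited ratio was taken as a share of that sum and printed as a percent. Image reading, background treatment and software: not given in the sources used here. Symbols came from the platform annotation, and all 6 members' Entrez identifiers carry the same symbol in the RefSeq table. Igf1 and Fn1 had 2 spots each, averaged on the log2 scale. Quantile normalization and log2 used no pseudocount. The files give no detection call or counts, so the number of arrays limits the precision. Exact permutation tests ran over all 5040 pairings of 7 samples (720 of 6), tested on simulated data, with Python 3.11.15, numpy 2.4.6 and pandas 2.3.3. Intervals of r use Fisher's transformation. The alternatives were 5 other scalings, Spearman's rho and leaving out each sample. The rule for named genes took the 6 members, the fixed pathway and marker lists, and for each member the 3 genes above the floor with the highest r. Members, lists and tests were chosen with earlier results of these data known, and the tests against the floor, the further alternatives for Cd36 and Fabp4, and the comparisons of adjacent spots and of ratio spreads were added after seeing the data.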

Additional observations from a re-analysis of the deposited data

How the results depend on the processing

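The count of member pairs at an exact p under 0.05 was 1 after quantile normalization and 1 with the position trend removed. It was 2 as deposited, 8 with equal medians, 4 as a share of the genes above the floor and 2 with the floor subtracted. Of pairs of genes above the floor, 13.4%, 55.3%, 21.9% and 11.0% passed in the same order. The count of member pairs was 0 by Spearman's rho, and 0 to 3 with 1 replicate left out. For these alternatives the share of all gene pairs was not counted. After adjustment over all gene pairs this count was 1 as deposited and 2 as a share of the genes above the floor. As deposited, 46.2% of all gene pairs passed after adjustment. On the scale of shares 64.4% passed before adjustment, and the share after it was not counted, so the 2 pairs have no like background. The count after adjustment was 0 under the other alternatives run, among them genes above the floor only and each replicate left out. For Fabp3 and Fabp4, r was 0.865 with equal medians (exact permutation p = 0.0179) and ran from -0.149 to 0.830 with 1 replicate left out, and other alternatives left it short of the threshold. For Cd36 and Fabp4, rho was 0.773, no longer under the threshold, and r ran from 0.623 to 0.905 with 1 replicate left out, and from 0.819 to 0.922 as deposited. The members' median SD was 0.67 with equal medians and 0.43 with the floor subtracted. It ran from 0.27 to 0.38 with 1 replicate left out. All 6 members were above the floor, 4 at 3 times the 10th percentile and 5 at 2 times the 20th. The causes of these changes were not tested. Signal near the floor limits Dgat1 and Vldlr most. A Dixon gap test looked for 1 sample apart from the other 6 in 13 sets of 7 values and found 0. It compares the gap beside an extreme sample with the range. That share was largest for Fabp4 (0.543) and Fabp3 (0.485), both quantile-normalized and both low in replicate 7. With 7 samples the test does not show that no sample stands apart. Without replicate 7, r of these 2 genes went from 0.681 to -0.149. No paired analysis was possible because the series has 1 group.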
